A study of Mus musculus with 4 samples.

Results

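Odd-skipped related 1 and 2 (Osr1 and Osr2) encode related zinc finger transcription factors, and the peaks described here are the TBX5 binding sites listed around these genes in the mouse forelimb bud. Of the 11224 peaks in the deposited list, 35 were members by position alone. They comprised 17 peaks whose summit, the position of strongest signal within a peak, lay on chromosome 12 between 9 and 10.2 Mb, around Osr1, and 18 on chromosome 15 between 34.8 and 35.7 Mb, around Osr2. The gene positions used, about 9.58 Mb for Osr1 and about 35.23 Mb for Osr2, were approximate ones on the mouse build mm9.

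TBX5 binding was assayed by chromatin immunoprecipitation and sequencing (ChIP-seq) in forelimbs of wild-type embryos of the outbred mouse stock ICR at embryonic day 10.5. The 4 libraries were 2 precipitated with a polyclonal TBX5 antibody and 2 of input chromatin, the unprecipitated background, and no library came from an embryo lacking TBX5. Whole forelimbs were used, so binding cannot be assigned to a cell type within the bud. The labels do not say how many embryos entered a library or whether the replicates came from separate litters.

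TBX5 is a T-box transcription factor required to start forelimb outgrowth, and it binds enhancers that can lie far from the gene they act on. Osr1 is known from intermediate and lateral plate mesoderm, where it is needed for kidney and heart development, and in the limb it marks progenitors of irregular connective tissue. Osr2 is known for its role in the palate and in tooth patterning. In the limb, both genes act in the mesenchyme that forms synovial joints, where they overlap in function. In the heart, Osr1 is known as a gene acting downstream of TBX5.

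The list gives 1 value per peak for the TBX5 group, with no column for either replicate or for input, so no member has a spread over samples, and read depth is unknown. Values below are therefore descriptions without a p-value, and none shows that either locus stands apart from the rest of the genome. Replicate agreement enters only through the score of the irreproducible discovery rate (IDR), which runs from 540, an IDR of 0.05, to a ceiling of 1000. The signal value is the strength given by the peak caller in its own unstated units. The labels name mm10 as the build, but 66 summits on 5 chromosomes lay beyond the ends of mm10 chromosomes and 0 beyond those of mm9. No peak was therefore placed in an exon, intron or promoter. Both genes lie inside the same coordinate windows on GRCm38.p6 (mm10) as well.

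Both loci held several times the average number of peaks. The Osr1 window had 14.2 peaks per Mb, 3.21 times the 4.41 peaks per Mb of the whole list and 3.06 times the density of chromosome 12. The Osr2 window had 20 peaks per Mb, 4.53 times the list and 5.03 times chromosome 15. At the list's average, 5.30 peaks would have been found in the Osr1 window and 3.97 in the Osr2 window.

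Other windows of the list were as dense. When all chromosomes were divided end to end into windows as wide as the Osr1 window (1.2 Mb), 105 of 2112 windows (4.97%, exact binomial 95% interval 4.08 to 5.99) held at least 17 peaks. The median such window held 4 and the densest 51. Of 2816 windows as wide as the Osr2 window (0.9 Mb), 72 (2.56%, interval 2.01 to 3.21) held at least 18, with a median of 3 and a maximum of 47. For Osr2 this percentage was 1.997 with the windows moved by 50% of a width and 1.42 after overlapping or touching peaks were joined, both below that interval. Each locus was therefore in the upper tail of a broad distribution without approaching its end. All windows were counted and not sampled, so these intervals are only a rough scale. They treat windows as independent and do not measure the effect of window placement or of joining peaks.

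**Figure D1:**
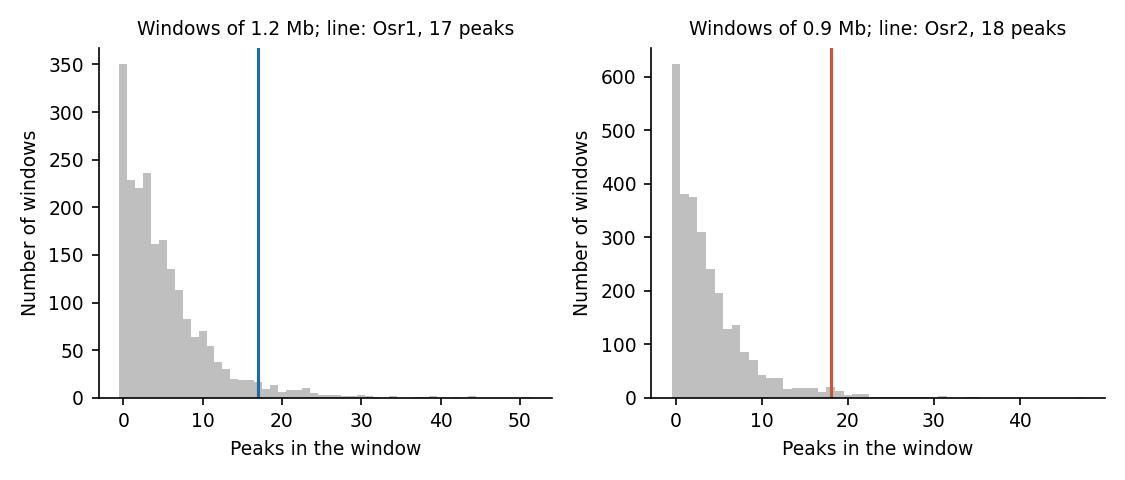
Number of peaks (x axis) in windows placed end to end along all chromosomes, against the number of windows (y axis, grey bars), for windows of 1.2 Mb (left) and 0.9 Mb (right). The coloured lines mark the 17 peaks around Osr1 and the 18 around Osr2, which 4.97% and 2.56% of windows reached.

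The Osr1 peaks are described here in 3 groups, set apart by the widest gaps of the window. The grouping depends on the distance used: joining summits up to 10 kb apart gave 15 groups, and up to 50 kb apart 6. The first group, 6 peaks, lay 235 to 399 kb from the gene on the side of lower coordinates, the second, 5 peaks, lay 40.1 to 199.6 kb from it on the side of higher coordinates, and the last, 6 peaks, lay 424 to 549 kb away on that side. No peak was listed in the 275 kb between the first and second groups, the stretch that contains the approximate position of Osr1 itself. Gaps at least that wide made up 21.7% of all gaps between neighbouring summits in the list. That share covers single gaps over the whole list, where summits lie further apart. The widest gaps of windows as dense as this one were not compared.

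The strongest peak of either locus was in the group above Osr1, at chr12:9779498-9779792, about 199.6 kb from the gene. Its signal value was 113.3, 4.17 times the list's median of 27.2, and it ranked 184 of 11224. Its IDR score was 1000. No other peak in that group approached it.

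The nearest other peaks on that side were a pair of modest strength, with summits 1457 bp apart at 9757598 and 9759055. Their signal values were 25.2 and 24.9 and their scores 887 and 876, so both lay slightly below the list's median in signal. The peak nearest to Osr1, at chr12:9619912-9620327 and about 40.1 kb away, had a signal value of 29.9 and a score of 1000. The next, 84.3 kb away at chr12:9664134-9664549, was weaker, with a signal value of 19.3 and a score of 649.

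On the side of lower coordinates the strongest peak was at chr12:9244410-9244598, about 335 kb from Osr1. It had a signal value of 79.8, a rank of 565 and a score of 1000. With the peak at 199.6 kb on the other side, it was 1 of 2 Osr1 peaks in the top 10% of the list by signal, which begins at 61.3. The outermost peak of this group, at chr12:9181100-9181515, had a signal value of 38.3 and a score of 1000. The other 4 were close to the list's median or below it, with signal values of 28.6, 27.1, 21.9 and 23.5 in order of approach to the gene.

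In the distant group above Osr1, the strongest peak was the outermost, at chr12:10128955-10129370, with a signal value of 48.2 and a score of 1000. The peak at chr12:10055037-10055452 had a signal value of 32.0 and also scored 1000. The remaining members of the group had signal values of 22.2, 22.3, 23.0 and 6.12. The weakest of these, at chr12:10004053-10004468, overlapped the peak with a signal value of 22.3 at chr12:10004360-10004775, and their summits were 307 bp apart. It ranked 11114 of 11224, and its q-value was 0.666, above 0.05, as were those of 6.07% of the list and of no other member. Both rows carried the same score of 614. A stronger summit within 500 bp was thus present for 1 of 35 members, against 10.1% of the list.

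The Osr2 peaks were unevenly divided between the sides of the gene. On the side of lower coordinates 3 peaks were listed, and on the side of higher coordinates 15. The 3 on the lower side were all of high signal: 51.0 at chr15:34833473-34833595, 52.7 at chr15:34860404-34860819 and 44.8 at chr15:35137057-35137472, about 396, 369 and 92.7 kb from the gene. Each scored 1000. The 277 kb without a peak between the outer pair and the innermost of these was the widest gap of the window, and 21.6% of the list's gaps were at least as wide.

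The peak nearest to Osr2 was weak. Its summit, at 35231735 in chr15:35231527-35231942, was about 1.73 kb from the approximate gene position, a distance within the rounding of that position. Its signal value of 18.2 was the lowest in the window, above 16.8% of the list, and its score was 593, an IDR of 0.0373. The next, at chr15:35242819-35243234 and about 13.03 kb away, had a signal value of 28.6, just above the list's median, and a score of 1000. A stronger peak followed about 59.4 kb away at chr15:35289263-35289487, with a signal value of 61.4 and a score of 1000.

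Most Osr2 peaks lay in a stretch 200 to 400 kb above the gene, which held 10 of the 18. The list's average gives 0.88 peaks for a stretch of that width. This was the fullest such stretch of the window, and how many elsewhere held as many was not counted. It included the strongest peak of the window, at chr15:35579553-35579746, about 349.7 kb from Osr2. That peak had a signal value of 86.4, a rank of 444 and a score of 1000. A weaker summit lay 1434 bp from that of this peak, with a signal value of 26.0 and a score of 856. The second strongest of the window, at chr15:35491471-35491703 and about 262 kb away, had a signal value of 64.6 and a score of 1000. The summit 4655 bp below it had a signal value of 37.8 and also scored 1000.

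The other 6 members of this stretch had signal values from 19.2 to 45.0, on both sides of the list's median. A peak about 233 kb from Osr2 had a signal value of 45.0, and a pair 2067 bp apart at about 214 and 216 kb had 28.2 and 34.2. Lower values were listed at about 311 kb (19.4), 362 kb (24.6) and 369 kb (19.2), with scores of 579, 730 and 571. The last of these scores was the lowest among all 35 members. Strong and weak peaks were thus interleaved within the stretch.

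Beyond it lay 2 peaks close to the end of the window, at chr15:35678136-35678551 and chr15:35687652-35688067. Their signal values were 39.7 and 58.1, but their scores differed, at 651 and 1000. Counting the first of these itself, 2844 listed peaks were at least as strong as it and 12 of them scored under 830, an IDR of 0.01.

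**Figure D2:**
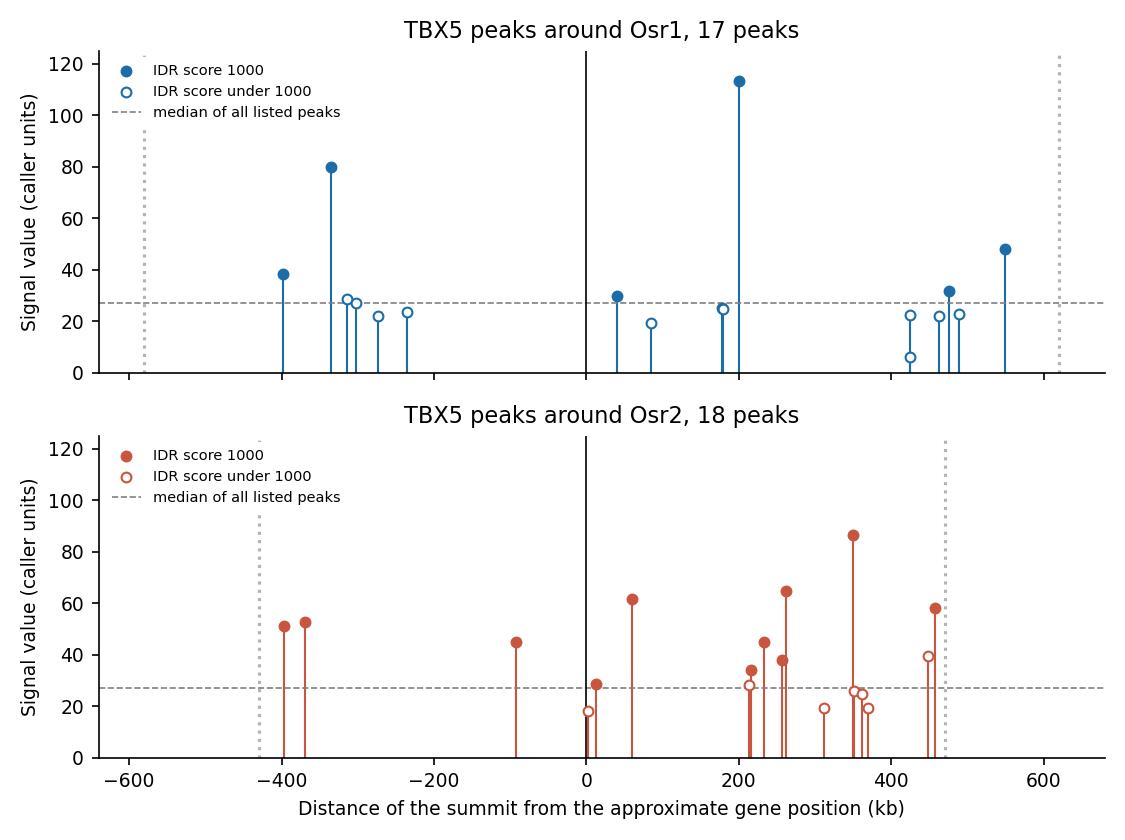
Signal value in the caller's units (y axis) of each TBX5 peak against the distance of its summit from the approximate gene position (x axis, kb), for Osr1 (top, 17 peaks) and Osr2 (bottom, 18 peaks). Filled points have an IDR score of 1000 and open points less, dotted lines are the window limits and the dashed line is the list's median of 27.2. Osr1 shows the 3 groups set apart by its widest gaps, with 1 peak of 113.3, and Osr2 shows 15 of 18 peaks above the gene.

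Counted at matched distances, the loci differed in where peaks were listed. Within 100 kb there were 2 peaks at Osr1, both above the gene, and 4 at Osr2, where the list's average gives 0.88. Within 200 kb there were 5 and 4, and within 300 kb 7 and 9. Within 400 kb there were 11 at Osr1, 6 below and 5 above, and 16 at Osr2, 3 below and 13 above, against 3.53 at the list's average. Each locus is a single region, so the difference in the division between sides was not tested.

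**Figure D3:**
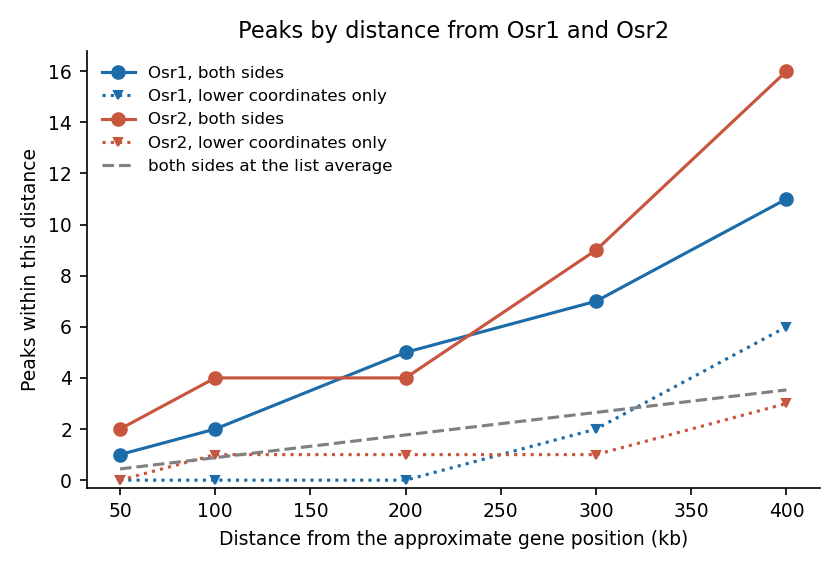
Number of peaks (y axis) within 50, 100, 200, 300 and 400 kb (x axis) of the approximate positions of Osr1 and Osr2. Circles count both sides of the gene, triangles count the side of lower coordinates alone, and the dashed line is the count that the list's average density gives. At 400 kb Osr1 had 11 peaks and Osr2 16, against 3.53.

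By the median gap peaks were closer together in both windows than in the list, but the share with a summit within 10 kb exceeded the list's only around Osr2. The median gap between neighbouring summits was 32.8 kb around Osr1 and 23.8 kb around Osr2, against 63.5 kb in the list. Another summit lay within 10 kb of 4 of 17 Osr1 peaks (23.5%) and of 10 of 18 Osr2 peaks (55.6%), against 42.7% of the list. At this distance the Osr1 share was below the background and the Osr2 share above it, but both rest on few peaks. The list's share also counts summits very close together, as 10.1% of listed peaks had a stronger summit within 500 bp. It was not recounted after joining overlapping peaks, so no difference from the background is claimed. Within 2 kb there were 2 pairs of peaks around Osr1 and 1 around Osr2. The larger number around Osr1 rests on the overlapping peaks with summits 307 bp apart. The share of the list with another summit within 2 kb was not counted, so neither number can be called high or low. Chaining summits within 10 kb gave 15 clusters around Osr1, of which 13 were single peaks, and 13 around Osr2, of which 8 were single. No cluster held more than 2 peaks.

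Signal values were higher around Osr2 at the median and the upper quartile, but not among the strongest peaks. The strongest and second strongest peaks had 113.3 and 79.8 around Osr1, against 86.4 and 64.6 around Osr2. Around Osr1 the lowest, median and highest signal values were 6.12, 25.2 and 113.3, and 7 of 17 peaks exceeded the list's median of 27.2, which by definition 50.0% of the list does. Around Osr2 they were 18.2, 38.7 and 86.4, and 13 of 18 exceeded it. The upper quartiles were 32.0 around Osr1 and 52.3 around Osr2, against 39.96 in the list. In the top 25% of the list by signal there were 3 of 17 Osr1 peaks (17.6%) and 8 of 18 Osr2 peaks (44.4%). The ranges overlapped, and the difference was not tested. The rest of chromosome 12 had a median of 28.7 and the rest of chromosome 15 one of 26.1.

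In the top 10% by signal, a class that by definition holds 10% of the list, there were 2 Osr1 peaks and 3 Osr2 peaks. These are the peaks at 335 kb below and 199.6 kb above Osr1, and at 59.4, 262 and 349.7 kb above Osr2. Both shares, 11.8% and 16.7%, were above 10% but rest on so few peaks that no difference from the background is claimed. In the lowest 25% of the list there were 2 Osr1 and 3 Osr2 peaks.

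**Figure D4:**
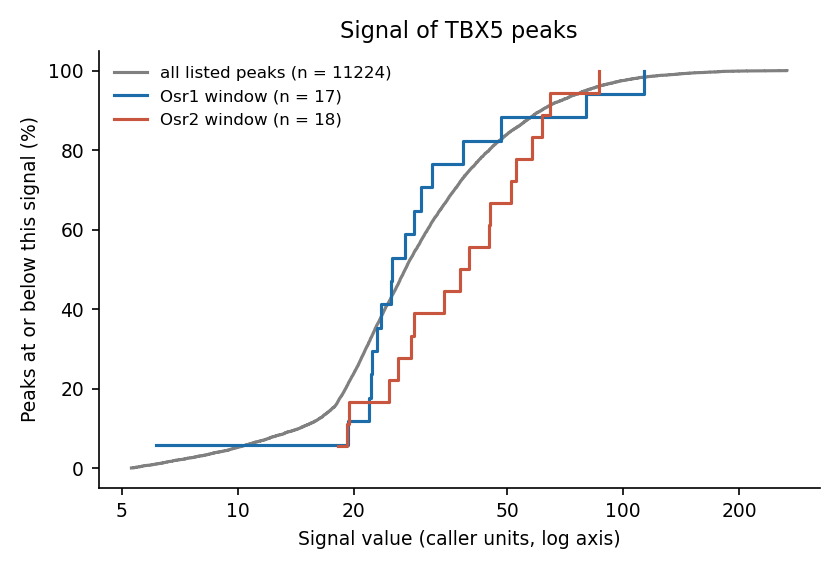
Percentage of peaks (y axis) at or below each signal value (x axis, caller's units, log axis) for all 11224 listed peaks (grey), the 17 peaks around Osr1 (blue) and the 18 around Osr2 (red). The Osr2 curve runs to the right of the list through the middle range, with a median of 38.7 against 27.2, and the Osr1 curve crosses that of the list, with a median of 25.2.

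Width, which the membership rule did not use, followed signal among the members as it did in the list. Of the 35 peaks, 29 had the list's most frequent width of 416 bp, which 84.3% of the list shares, and 6 were narrower, from 123 to 295 bp. The 6 narrow peaks had signal values of 51.0 to 113.3 and included all 5 members in the top 10% by signal. The 29 others ranged from 6.12 to 58.1, so the classes overlapped. In the list, 93.2% of the peaks in the top 10% by signal were narrower than 416 bp, against 6.74% of the rest, so the members' widths are near the background.

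By the IDR score, which measures agreement between the replicates, the members were near the list as a whole. A score of at least 830 was reached by 11 of 17 Osr1 peaks and 13 of 18 Osr2 peaks, against 60.0% of the list. The ceiling of 1000 was reached by 6 Osr1 peaks (35.3%) and 11 Osr2 peaks (61.1%), against 45.4% of the list. The median score was 887 around Osr1 and 1000 around Osr2, with 941 in the list. All 11 members in the top 25% of the list by signal scored 1000, as did 2776 of the 2806 peaks in that class. The list's strongest q-value was shared by 5 Osr1 peaks (29.4%) and 11 Osr2 peaks (61.1%), against 38.6% of the list. The score differences between the loci went the same way as their signal values, to which the score is related in the list.

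**Figure D5:**
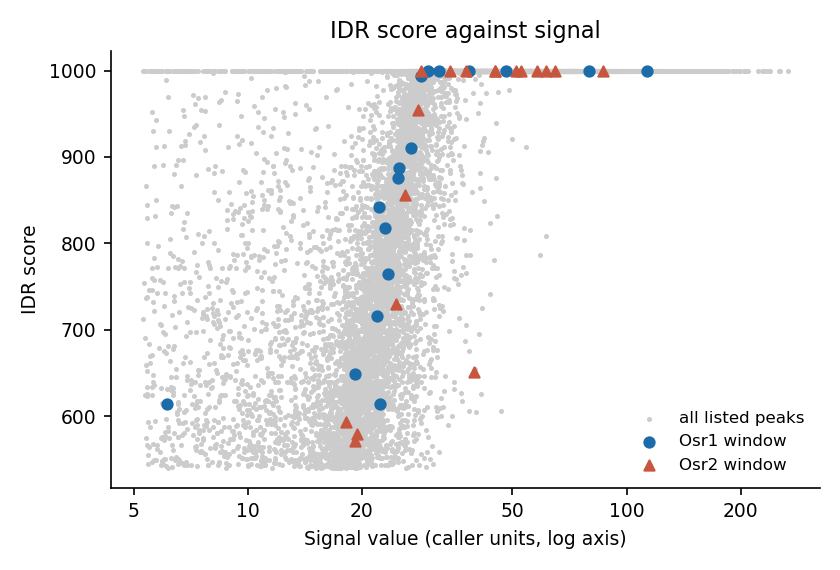
IDR score (y axis) against signal value (x axis, caller's units, log axis) for all listed peaks (grey points), the 17 peaks around Osr1 (blue circles) and the 18 around Osr2 (red triangles). Members with a signal value above 40 all score 1000, while the Osr2 peak with a signal value of 39.7 scores 651.

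The genes next to Osr1 and Osr2 in the order of the RefSeq gene table of GRCm38.p6 give the surroundings of the windows. Osr1 is preceded by Ttc32, Wdr35 and Matn3 on the side of lower coordinates and followed by Nt5c1b, Rdh14 and Kcns3 on the other, with no protein-coding gene between Ttc32 and Nt5c1b except Osr1. WDR35 is a component of ciliary transport and matrilin 3 a cartilage matrix protein. Osr2 is flanked by Stk3, which encodes a kinase of the Hippo pathway, and then Kcns2 and Nipal2 on the side of lower coordinates, and by Vps13b, Cox6c and Rgs22 on the other. Whether any peak lies within Stk3 or Vps13b was not determined, and a peak's nearness to Osr1 or Osr2 does not show that it acts on that gene.

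The window limits were round positions, and peaks continued outside them. Below the Osr1 window the first peak outside had a signal value of 52.6, about 594 kb from the gene, and the first inside 38.3. Above it the last inside had 48.2 and the first outside, about 625 kb from the gene, 97.8, which would have been the second strongest of the locus. Around Osr2 the first peaks outside were weaker, with 19.2 below (about 485 kb) against 51.0 inside and 23.9 above (about 543 kb) against 58.1 inside.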

How the data were processed

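Peaks were taken from 1 deposited list in narrowPeak layout, made for the TBX5 ChIP group (2 libraries, single-end reads of 75 bp per the labels' protocols) with 2 input libraries in the series. The deposited score is the scaled IDR score of each peak, the deposited signal value is the peak caller's strength, and the deposited −log10 q-value is the caller's significance. The caller, aligner and filters are not given in the sources used here. Per the submitters' processing notes, FastQC was used and the build was mm10, which the chromosome ends went against (mm9 and mm10 lengths were entered by hand).

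Members were all rows with a summit inside either window. Starts and summits were converted to 1-based positions, and an IDR was computed as 2 to the power of minus score over 125. Named peaks were those in the top 10% by signal, at least the 5 strongest per window, the nearest to each gene, those at the window limits, the extremes of each value and the closest pairs; the remaining members were then given by value as well. The members, windows and lists were chosen with earlier results of these data known. The planned comparison of protein and promoter sequences was not run, since neither gene had an entry in the tables used here. Analyses used Python 3.11.15, NumPy 2.4.6, SciPy 1.17.1, pandas 2.3.3 and matplotlib 3.10.9, and 8 of 8 checks of the counting functions on simulated positions returned the planted answers.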

Additional observations from a re-analysis of the deposited data

How the results depend on the processing

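Of 72 alternative values for 12 results, 52 stayed within 1.5 times the reported value or, for the percentages of windows, inside the exact binomial interval. Medians of score did so under all alternatives run, but the score has a ceiling of 1000. Neither median, 887 around Osr1 or 1000 around Osr2, could therefore rise by 1.5 times. The stricter IDR limit also selects on the score itself. Membership by interval overlap changed no value. Joining overlapping peaks, or removing those near a stronger summit, left the Osr2 peak count, medians and clusters unchanged. The tally includes such settings, so it is not a measure of stability. Around Osr1 the peak count became 11 under a stricter IDR limit of 0.01, 7 among the 50% of the list with the higher signal, 7 within 300 kb of the gene position and 2 within 100 kb, in place of 17. Around Osr2 it was 13 under the stricter IDR limit and 13 in the upper 50% by signal, both within 1.5 times of the reported 18. It was 9 within 300 kb and 4 within 100 kb. Each of these settings keeps fewer peaks by construction. Clusters numbered 7 around Osr1 in the upper 50% by signal, 6 within 300 kb, 2 within 100 kb and 6 when chained at 50 kb, in place of 15. Around Osr2 they numbered 10 in the upper 50% by signal, 7 within 300 kb, 4 within 100 kb and 5 when chained at 50 kb, in place of 13. The median signal in the upper 50% was 38.3 around Osr1, in place of 25.2, and 45.0 around Osr2, in place of 38.7. That setting removes low values by construction. The percentage of windows with as many peaks as Osr2 was 1.997 with windows moved by 50% of a width and 1.42 after overlapping or touching peaks were joined, in place of 2.56. Joining only removes peaks from the list and the Osr2 count stayed at 18, so that setting favours a lower percentage by construction. The cause of the shift with moved windows was not tested. With the gene position moved 100 kb lower or higher, the nearest summit was 135.2 or 15.7 kb from Osr1, in place of 40.1, and 7.26 or 40.6 kb from Osr2, in place of 1.73, so distances to the nearest peak hold only as far as the approximate gene positions do.

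No paired analysis was possible because each peak carries 1 value for the whole TBX5 group, and no replicate was left out in turn for that reason. Read depth is unknown, so sites missed for lack of reads are not counted.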

Other observations

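The deposited q-value did not rank the members as the signal value did. Among the 14 members with a signal value between 20 and 30, the −log10 q-value ranged from 3.51 to 3.74. It was highest, at 3.74, for the Osr1 peaks with signal values of 22.2 and 22.3, and lowest, at 3.51, for the Osr1 peak with a signal value of 29.9. All 16 members with a signal value above 30 shared the list's strongest value of 3.95, as did 4331 of the 4760 listed peaks (90.99%) at or above 30. In the whole list, Spearman's rho between signal value and −log10 q-value was 0.953 over the 2683 peaks with a signal value under 20, -0.055 over the 3781 between 20 and 30, and 0.494 over the 4760 at or above 30. These correlations are across peaks of 1 list, which share the same libraries and are not replicates.

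The peak about 448 kb above Osr2 combined a high signal value with a low score. Its signal value was 39.7 and its score 651. Counting the peak itself, 4 of the 2844 listed peaks that were at least as strong scored as low. Its summit was 9516 bp from the peak with a signal value of 58.1 and a score of 1000.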
